A study of Homo sapiens with 6 samples.

Results

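The zinc transporter and metallothionein genes of MDA-MB-231 cells were examined as a set of 33 genes, taken by symbol from the 58656 gene rows of the deposited tables. The set held the 10 SLC30A exporters (ZnT proteins), the 14 SLC39A importers (ZIP proteins), 8 metallothioneins and MTF1. All 33 symbols were found, each in 1 row. After mitocurcumin, 4 members rose, SLC39A14, MT1E, MTF1 and SLC30A1, and 5 fell, SLC39A10, SLC30A6, SLC30A5, SLC39A9 and SLC39A7. These were 16.7% and 20.8% of the 24 members tested, near the 14.7% and 17.8% of all tested genes that rose and fell. The most abundant metallothionein, MT2A, gave a fold of 0.993 in CPM (counts scaled to library size), with a 95% interval of -0.15 to 0.13 on the log2 scale.

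MDA-MB-231 is an established human line of triple-negative breast cancer. Cells received mitocurcumin, a curcumin derivative directed to mitochondria, at 5 µM for 9 hours, and control cells received DMSO alone for the same 9 hours. Both groups were grown in DMEM with serum, and each had 3 libraries of polyadenylated RNA. The labels call the replicates biological and do not say whether they were separate cultures, so p-values measure the spread between these libraries.

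Total counts ran from 23146822 to 29104681 per library. Control replicate 1 lay apart from the other controls on the second principal component of log2 CPM, at 23.5 against -13 and -12.2. Of the markers known for this line, all 6 expected to be high (VIM, CD44, AXL, CAV1, EGFR and KRT18) were at 151.5 CPM or more in each library. ESR1 and PGR, the estrogen and progesterone receptor genes, were at or under 0.348 CPM. ERBB2 and EPCAM, listed as low in this line, were at 30.3 to 48.6 and 18.8 to 24.3 CPM. Summed markers of immune cells, fibroblasts and endothelial cells were lower after mitocurcumin, at 87.2 to 106.0, 14.4 to 17.3 and 6.06 to 6.9 CPM against 117.0 to 125.4, 20 to 24.4 and 11.6 to 15 CPM in controls. CD68, which made up most of the immune sum, went from a mean of 110.7 to 90.8 CPM. PECAM1, most of the endothelial sum, went from 12.9 to 6.42 CPM. COL1A1 and COL1A2 made up most of the fibroblast sum. COL1A2 went from 13 to 5.9 CPM, but COL1A1 went up, from 8.52 to 9.25 CPM. DCN and CDH5, at far lower levels, also had higher means after treatment. CD3E and CDH5 were under 0.1 CPM throughout, and 0 of these markers were at 0 in all 6 libraries. Summed adipocyte markers were at 1.11 to 2.24 CPM in controls and 1.37 to 2.08 CPM after treatment. In bulk RNA fewer cells of a type and less RNA per cell cannot be told apart, and the part of these markers in the results was not tested.

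Zinc is bound by many enzymes and transcription factors, and cells hold the free ion in the cytosol at very low levels. ZIP proteins bring zinc into the cytosol from outside the cell or from organelles. Most ZnT proteins, though not all, move it out of the cytosol into organelles or across the plasma membrane. Metallothioneins are small proteins that bind zinc and copper through their cysteines. MTF1 is a zinc-sensing transcription factor that binds metal response elements, and metallothionein genes and SLC30A1 are its classical targets. Repression of SLC39A10 by MTF1 under zinc excess has also been described.

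The metal response element is read here as its core, TGCACNC or TGCGCNC, searched on both strands of the stretch from 250 bases before to 50 bases after each gene start, with every match counted, also where matches overlap. The RefSeq promoter table (GRCh38.p14) held such a stretch for 25 of the 33 members (the entry nearest the deposited gene start), and none for SLC30A8, SLC39A4, SLC39A14, MT1A, MT1E, MT1F, MT1G and MT1M. The core occurred at least once in 11 of the 25 and in 29.6% of all 35116 promoters of the table. MT2A and MT1H each had 8 matches, a number that 0.0199% of all promoters reached or passed, and MT1X had 4, reached or passed by 0.601%. SLC30A2 had 3 matches and SLC30A1 and SLC30A3 had 2 each. MTF1, SLC39A10, SLC30A5, SLC39A7 and SLC39A9 had 0 matches in this window, and SLC30A6 had 1. The antioxidant response element, TGACNNNGC, was found in 10 of the 25 and in 13.3% of all promoters, and the ATF4 and CHOP composite element, TGATGCAA, in 0 of the 25 and in 0.866%.

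To show how differently the core is placed in the main metallothioneins and the classical exporter target, the 250 bases before the gene start are printed 5′ to 3′ on the gene's strand, with matches to the core in capitals. They lie in GRCh38.p14 at chr16:56608334-56608583 (+) for MT2A, at chr16:56682220-56682469 (+) for MT1X and at chr1:211579162-211579411 (-) for SLC30A1, and hold 7, 4 and 1 matches.
MT2A: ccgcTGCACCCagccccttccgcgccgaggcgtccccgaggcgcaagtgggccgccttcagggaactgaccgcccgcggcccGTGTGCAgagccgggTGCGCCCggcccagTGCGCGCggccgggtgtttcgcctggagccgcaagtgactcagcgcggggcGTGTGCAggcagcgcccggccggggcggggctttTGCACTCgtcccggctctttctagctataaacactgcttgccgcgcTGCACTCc
MT1X: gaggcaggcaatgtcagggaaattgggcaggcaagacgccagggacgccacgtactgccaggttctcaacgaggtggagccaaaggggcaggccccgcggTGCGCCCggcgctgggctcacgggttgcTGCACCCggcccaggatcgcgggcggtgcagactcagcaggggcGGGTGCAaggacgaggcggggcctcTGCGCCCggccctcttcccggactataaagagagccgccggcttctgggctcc
SLC30A1: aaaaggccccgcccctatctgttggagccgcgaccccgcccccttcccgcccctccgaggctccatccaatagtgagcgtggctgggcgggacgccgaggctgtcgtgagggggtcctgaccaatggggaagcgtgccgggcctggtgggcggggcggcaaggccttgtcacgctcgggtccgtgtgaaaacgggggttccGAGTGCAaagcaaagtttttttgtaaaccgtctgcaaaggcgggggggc

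**Figure D1:**
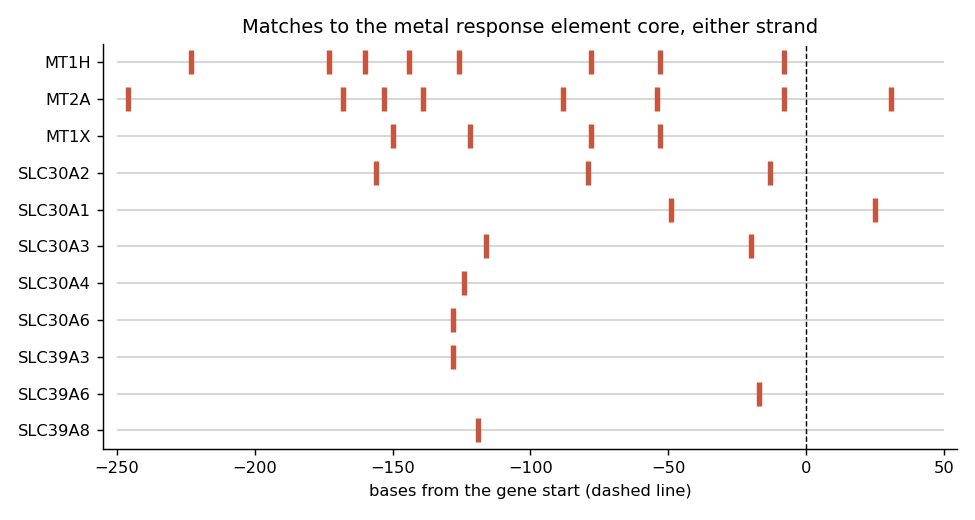
Each row is a member with at least 1 match to the metal response element core, the x axis gives bases from the gene start, and each bar is the first base of a match on either strand. MT1H and MT2A have 8 bars each and MT1X has 4, while the transporters shown have 1 to 3.

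The coding sequences of the metallothioneins are much alike, and how reads that match several of them were counted is not given in the sources used here. Their untranslated parts were not compared. The coding sequences of 7 members were 186 bases long (GENCODE release 29), and pairs of them were 88.7% to 94.6% identical, with the longest shared stretch of a pair at 32 to 65 bases. MT2A and MT1X, the pair printed here, differ at 14 positions, shown in capitals, and each has 20 cysteine codons.
MT2A: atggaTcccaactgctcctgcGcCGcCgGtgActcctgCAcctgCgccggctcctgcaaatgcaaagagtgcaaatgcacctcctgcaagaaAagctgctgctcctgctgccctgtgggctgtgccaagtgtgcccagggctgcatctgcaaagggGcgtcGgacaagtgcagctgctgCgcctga
MT1X: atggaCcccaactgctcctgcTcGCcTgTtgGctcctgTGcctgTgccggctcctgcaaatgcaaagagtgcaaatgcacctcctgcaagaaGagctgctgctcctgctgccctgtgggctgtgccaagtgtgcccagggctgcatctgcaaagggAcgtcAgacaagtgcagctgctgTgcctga

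Before the comparison, the levels of the members were set beside each other as control CPM per kilobase of annotated exon, over 3 libraries. Among exporters SLC30A9, a mitochondrial zinc transporter, was highest at 23.3 ± 0.875 (SD, n = 3). SLC30A5, SLC30A1, SLC30A6 and SLC30A7 followed between 14 and 16.4, and of these neighbours only SLC30A5 and SLC30A1 overlapped in their library values. SLC30A4, of endosomes, stood at 2.53 ± 0.217. SLC30A10, SLC30A3, SLC30A2 and SLC30A8 were under 0.5 CPM per kilobase.

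Of the importers SLC39A7, which releases zinc from the endoplasmic reticulum, had the highest level per length, 95.6 ± 3.01 CPM per kilobase, and SLC39A6 came next at 40.1 ± 3.09. SLC39A1, SLC39A9, SLC39A10 and SLC39A14 lay between 22.6 and 25.4, and each overlapped with its neighbour in that order. After mitocurcumin they no longer lay together, since SLC39A14 was at 32.7 ± 1.2 and SLC39A10 at 14.7 ± 0.524. SLC39A8 was at 16.2 ± 1.56 in controls, and SLC39A13, SLC39A11, SLC39A3 and SLC39A4 ran from 4.85 down to 1.1. Among metallothioneins MT2A was at 108.1 ± 8.4 CPM per kilobase, MT1X at 19 ± 0.132 and MT1E at 15.6 ± 2.97, and the other 5 rows were under 1.5. MT1X and MT1E overlapped in their library values. Their order rests on the exon lengths used, since without them MT1E was at 16.4 and MT1X at 15.7 CPM in controls.

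**Figure D2:**
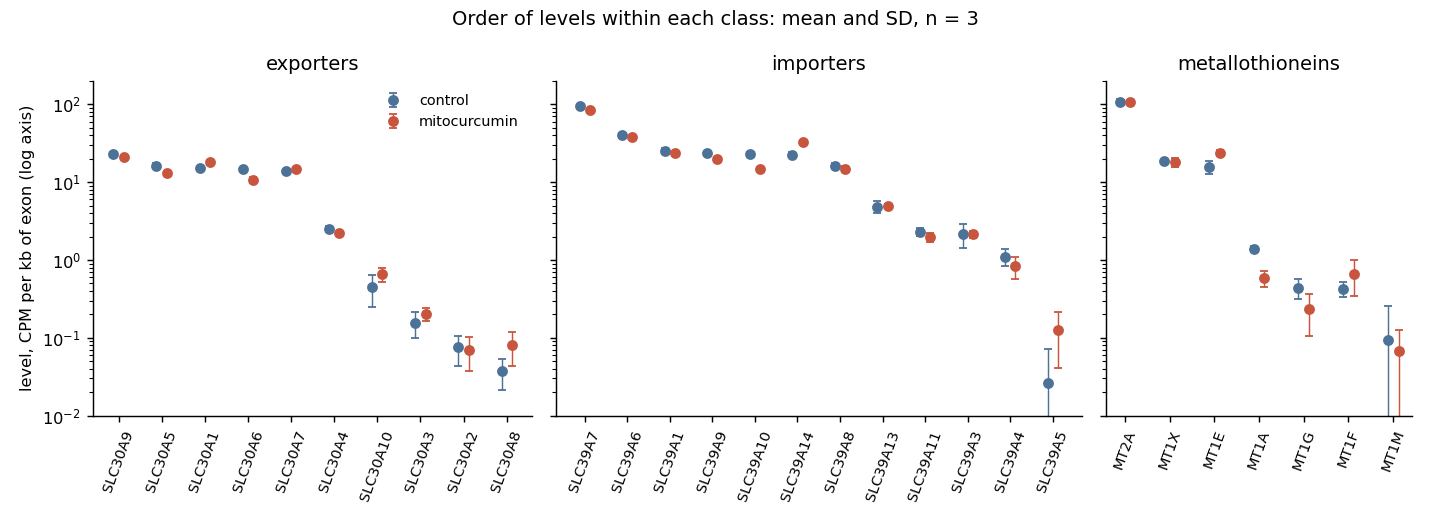
Points are the mean level of each member with a level above 0 in controls, in CPM per kilobase of exon on a log axis, for 3 control (blue) and 3 mitocurcumin (red) libraries, and bars are the SD; bars that would reach 0 run off the axis. SLC39A7 and MT2A lead their classes, near 95.6 and 108.1, and SLC39A14 and SLC39A10 part after treatment.

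Across the set, 24 members had enough counts to be tested, 8 exporters, 11 importers, 4 metallothioneins and MTF1, by edgeR's quasi-likelihood test on 16481 genes with Benjamini-Hochberg adjustment over all of them. Higher calls, at an adjusted p under 0.05, went to 4 of the 24 members, or 16.7%, where 14.7% of all tested genes were higher. Lower calls went to 5, or 20.8%, where 17.8% of all tested genes were lower. The groups did not overlap in 13 of the 24, or 54.2%, against 44.9% of all tested genes. These shares are near those of all genes, and so is the median absolute log2 fold change, 0.24 against 0.23. No class went wholly one way in its fold changes. Among exporters 1 rose and 2 fell, with a median log2 fold change of -0.03. Importers gave 1 higher and 3 lower calls with a median of -0.12, and metallothioneins 1 higher and 0 lower with a median of -0.04, where the median over all tested genes was -0.01. Without control replicate 1, the library that lay apart, lower calls numbered 8 of 26 tested members, with SLC30A4, SLC30A9 and SLC39A8 added, and 19% of the 16902 genes tested in that fit were lower.

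**Figure D3:**
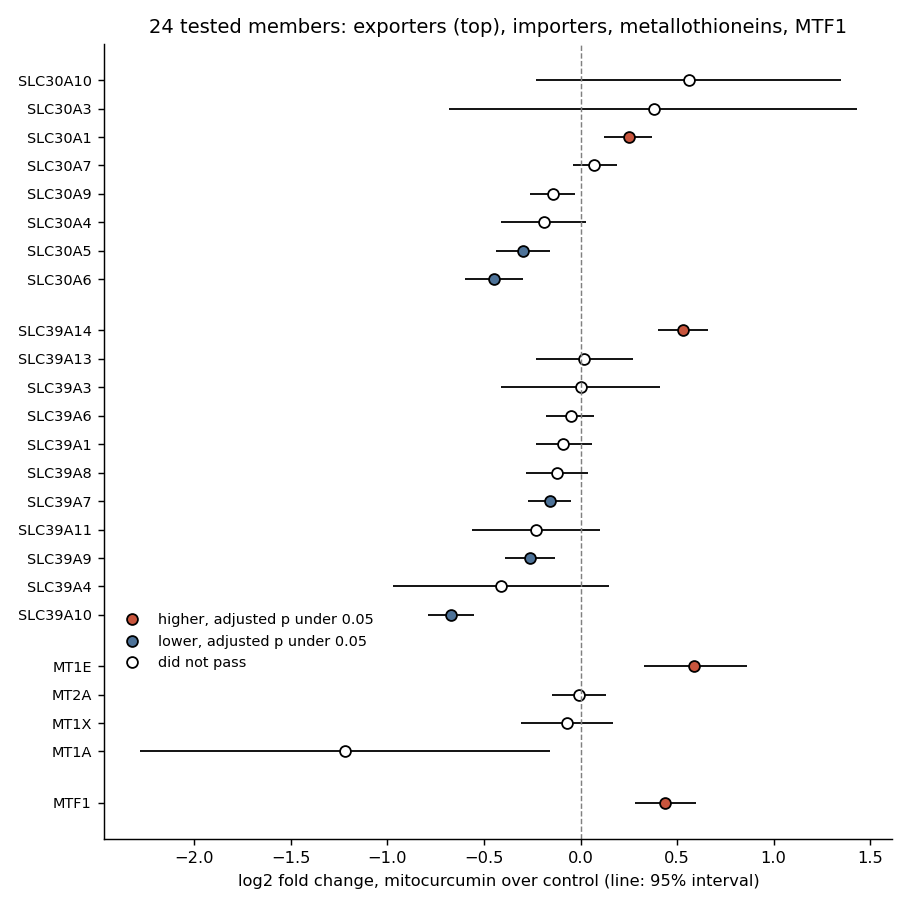
Each point is the log2 fold change of a tested member, mitocurcumin over control, with its 95% interval; red points were higher, blue points lower and white points did not pass. Exporters, importers and metallothioneins each have points on both sides of 0, from -1.22 for MT1A to 0.59 for MT1E.

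MTF1 itself, the regulator (Entrez 4520, GRCh38 chromosome 1, 37809574 to 37859592, minus strand), was at 46.0, 45.5 and 40.2 CPM in the control libraries and at 61.9, 57.4 and 59.8 CPM in the mitocurcumin libraries. All 3 treated values were above all 3 control values. The rise was 0.44 ± 0.07 (log2 fold change ± SE, edgeR adjusted p = 0.00022), a fold of 1.36, and it passed in all 16 alternative analyses.

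The metallothionein genes lie in 1 cluster on the long arm of chromosome 16, from MT2A (56608584 to 56609497) to MT1X (56682470 to 56684196). MT2A, the most abundant, was at 115.8, 106.6 and 99.1 CPM in controls and at 102.6, 114.2 and 102.5 CPM after mitocurcumin. The groups overlapped, and the change of -0.01 ± 0.07 did not pass (edgeR adjusted p = 0.93). MT1X was at 15.7, 15.5 and 15.7 CPM in controls and at 12.7, 15.9 and 16.2 CPM after treatment, a change of -0.07 ± 0.12 with an interval of -0.31 to 0.17 on the log2 scale. Its single low value was that of mitocurcumin replicate 1.

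MT1E (Entrez 4493, 56625781 to 56627112) was the metallothionein that rose. Its control values were 20, 14.2 and 15.2 CPM and its treated values 23.4, 27.3 and 23.7 CPM, so that the lowest treated library was above the highest control library, replicate 1. The change was 0.59 ± 0.12 (edgeR adjusted p = 0.0015), a fold of 1.51 with an interval of 0.33 to 0.86 on the log2 scale. Leaving out control replicate 1 gave 0.76, and the call held in all 16 alternatives. Ratios between members, here and later, were chosen after their values were seen and carry no test. The ratio of MT1E to MT2A counts went from 0.153 ± 0.02 to 0.233 ± 0.00589 (SD, n = 3), while that of MT1X to MT2A counts was 0.147 ± 0.0115 and 0.14 ± 0.0172.

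MT1A was expressed near the detection limit. It had 14.4, 14 and 12 counts in controls and 6, 4 and 8 counts after mitocurcumin, so the groups did not overlap. The change of -1.22 ± 0.50 did not pass (edgeR adjusted p = 0.071), and it passed in 0 of 15 alternatives, with adjusted p-values of 0.059 to 0.2. MT1A and MT1E are 94.6% identical in coding sequence, the closest pair.

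The other metallothioneins were too low to test. MT1F had 6 to 10 counts in controls and 6 to 18 after treatment, MT1G 6 to 10 and 2 to 7.7, and MT1M at most 5.8 in a library. MT1H, whose promoter stretch matched the core as often as that of MT2A, was at 0 in all 6 libraries, where 3 counts, the limit that a count of 0 allows, equal 0.104 to 0.128 CPM. Of 13 further metallothionein rows of the tables, pseudogenes and the tissue-restricted MT3 and MT4 among them, 9 were at 0 and the other 4 held at most 4 counts in a library.

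Since the counting of reads that match several paralogs is not given, the rows were also summed. The 21 metallothionein rows together gave 152.9, 137.8 and 131.2 CPM in controls and 139.9, 158.3 and 143.6 CPM after mitocurcumin. The groups overlapped, with means of 140.6 ± 11.1 and 147.3 ± 9.74 CPM (SD, n = 3) and a ratio of 1.05. MT2A, MT1E and MT1X made up 99.1% of the sum in controls. Within the sum the share of MT1E went from 13.1%, 10.3% and 11.6% to 16.7%, 17.3% and 16.5%, with no overlap, and that of MT2A from 76.2% ± 1 to 72.3% ± 0.972 (SD, n = 3).

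**Figure D4:**
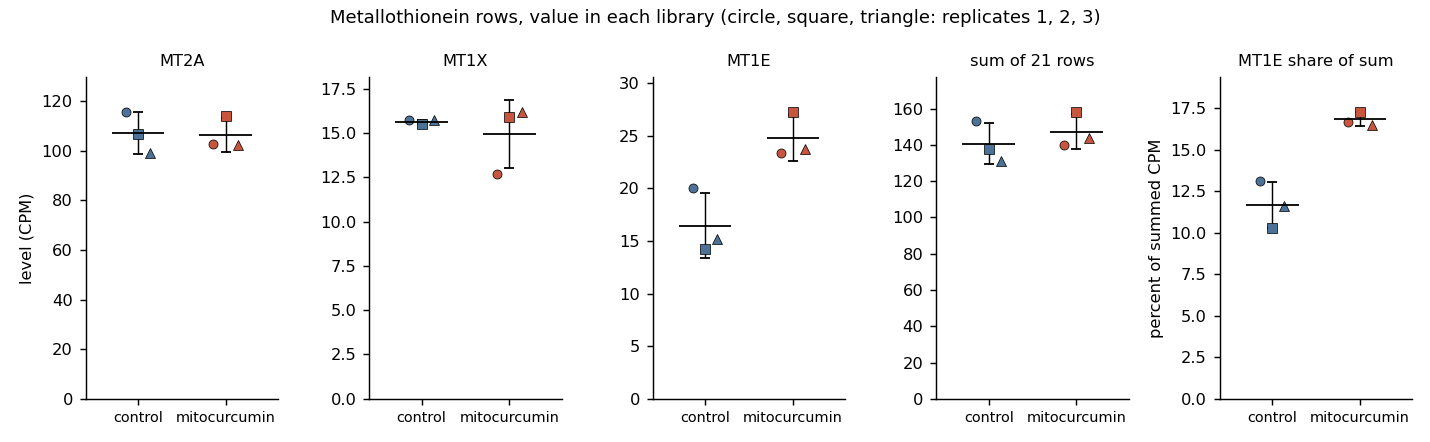
Points are single libraries (circle, square and triangle for replicates 1, 2 and 3), lines the group means and bars the SD, for the CPM of MT2A, MT1X and MT1E, the summed CPM of 21 metallothionein rows and the percent of that sum from MT1E. Control and treated points overlap for MT2A, MT1X and the sum, and are apart for MT1E, at 14.2 to 20 against 23.4 to 27.3 CPM.

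SLC30A1, the main zinc exporter of the plasma membrane (Entrez 7779, chromosome 1, 211571568 to 211579161, minus strand), was the exporter that rose. Its libraries read 82.2, 86.0 and 82.6 CPM in controls and 101.4, 93.6 and 102.5 CPM after mitocurcumin, without overlap. The rise of 0.25 ± 0.06 (edgeR adjusted p = 0.0042) was a fold of 1.19 and passed in all 16 alternatives.

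SLC30A5 and SLC30A6, which form a heterodimer that loads zinc into the early secretory pathway, both fell. SLC30A6 (Entrez 55676, chromosome 2, 32165864 to 32224379) went from 75.2, 77.7 and 76.8 CPM to 53.3, 61.6 and 53.4 CPM. The highest treated value, of replicate 2, was well under the lowest control value, and the change was -0.45 ± 0.07 (edgeR adjusted p = 1.0e-04), a fold of 0.732. SLC30A5 (Entrez 64924, chromosome 5, 69094014 to 69131069) was at 78.5, 89.1 and 81.6 CPM in controls and at 69.6, 66.1 and 66.4 CPM after treatment, again without overlap. Its change was -0.30 ± 0.07 (edgeR adjusted p = 0.0018).

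SLC30A7, which serves the same compartment as a homodimer, was not called. It read 109.4, 112.3 and 113.3 CPM in controls and 114.6, 118.5 and 119.5 CPM after treatment, a change of 0.07 ± 0.05 that did not pass (edgeR adjusted p = 0.33), with an interval of -0.04 to 0.19. The ratio of SLC30A6 to SLC30A7 counts was 0.688, 0.692 and 0.678 in controls and 0.465, 0.52 and 0.447 after mitocurcumin. Between SLC30A5 and SLC30A6 the ratio was 1.08 ± 0.0551 in controls and 1.21 ± 0.121 after treatment (SD, n = 3), and its library values overlapped.

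SLC30A9 was at 138.9 to 149.7 CPM in controls and 128.1 to 133.2 CPM after treatment, and SLC30A4 at 16.4 to 19.3 and 15.6 to 16.0 CPM. In both the treated values were lower without overlap, but the changes of -0.14 ± 0.05 and -0.19 ± 0.10 did not pass (edgeR adjusted p = 0.054 and 0.18). Both passed without control replicate 1, with adjusted p-values of 0.008 and 0.044. SLC30A4 overlaps HMGN2P46, a pseudogene row of lower count, on the opposite strand.

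The exporters of specialised tissues were near the limit of detection. SLC30A10, which exports manganese, had 14 to 32.9 counts in controls and 23 to 39.2 after treatment, and its change of 0.56 ± 0.37 did not pass (edgeR adjusted p = 0.27). SLC30A3, of synaptic vesicles, had 5.2 to 16 counts over all libraries and a change of 0.38 ± 0.50. SLC30A8, of insulin granules, held 7, 3 and 5 counts in controls and 13, 5 and 18 after treatment, and SLC30A2, of secretory vesicles, 3 to 10 counts over all libraries. The last pair was not tested.

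SLC39A14 (ZIP14), a plasma membrane importer of zinc that also carries iron and manganese, was the importer that rose (Entrez 23516, chromosome 8, 22367278 to 22434129). Its libraries read 130.7, 115.8 and 113.4 CPM in controls and 180.7, 169.0 and 170.4 CPM after mitocurcumin. Every treated library was above every control library, and the rise of 0.53 ± 0.06 (edgeR adjusted p = 5.6e-06) was a fold of 1.45. SLC39A8 (ZIP8), its nearest relative with the same range of metals, was at 87.3, 93.9 and 105.4 CPM and at 85.4, 82.5 and 95.8 CPM. Those groups overlapped, and the change of -0.12 ± 0.08 did not pass (edgeR adjusted p = 0.25), though it did without control replicate 1, at -0.18 with an adjusted p of 0.03. The ratio of SLC39A14 to SLC39A8 counts went from 1.27 ± 0.213 to 1.98 ± 0.179 (SD, n = 3).

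SLC39A10 (ZIP10), another importer of the plasma membrane, showed the largest fall among the members that passed (Entrez 57181, chromosome 2, 195656958 to 195737700). It went from 124.8, 135.8 and 131.3 CPM to 80.7, 85.5 and 80.2 CPM, a change of -0.67 ± 0.06 (edgeR adjusted p = 1.9e-07) and a fold of 0.628. The ratio of SLC39A14 to SLC39A10 counts was 1.05, 0.853 and 0.864 in controls and 2.24, 1.98 and 2.12 after treatment. SLC39A6 (ZIP6), with which SLC39A10 forms a heteromer, was at 134.5, 153.1 and 155.1 CPM and at 142.5, 144.1 and 140.0 CPM, all treated values within the range of the controls. Its change was -0.05 ± 0.06 (edgeR adjusted p = 0.55), with an interval of -0.18 to 0.07.

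**Figure D5:**
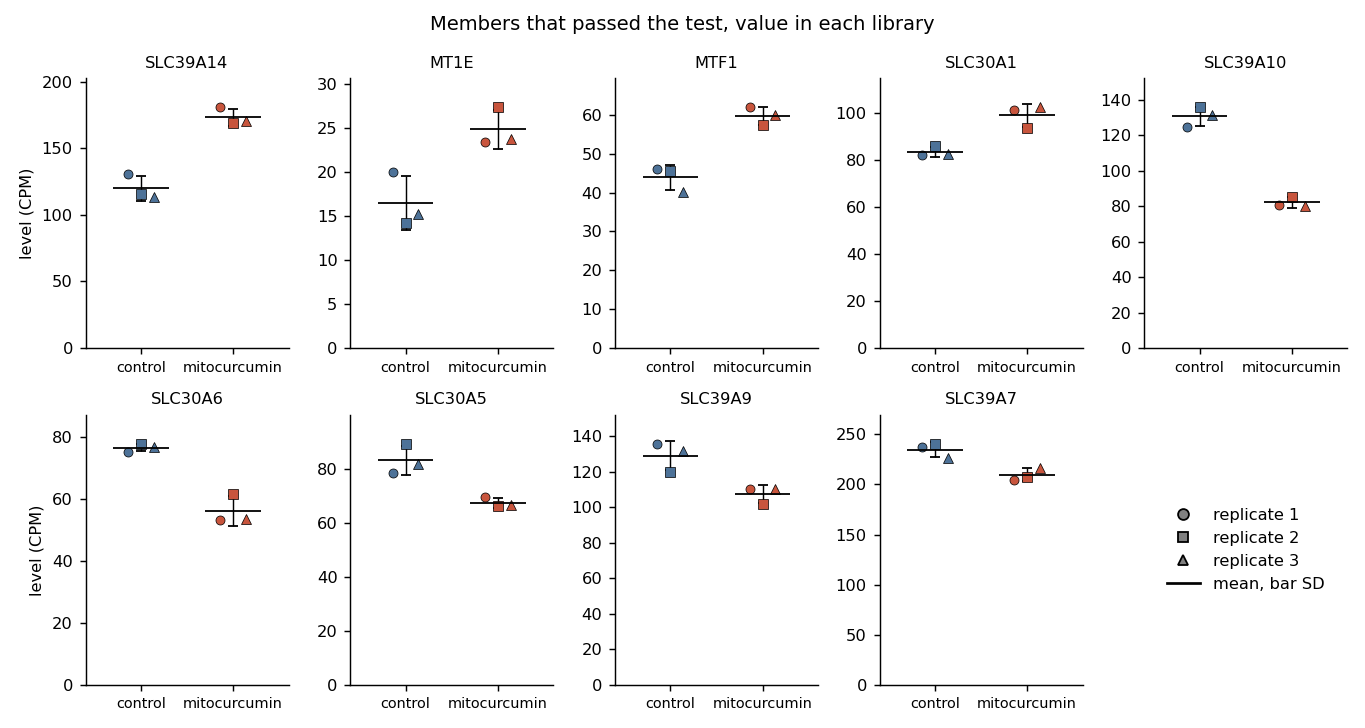
Each panel shows 1 of the 9 members that passed, with CPM from 0 on the y axis, a point per library (replicates 1, 2 and 3 as circle, square and triangle), a line at the group mean and a bar for the SD. In every panel the treated points lie wholly above or wholly below the control points, from a fold of 1.51 in MT1E to 0.628 in SLC39A10.

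The importers of internal membranes that fell did so by smaller amounts. SLC39A9 (ZIP9), of the Golgi and plasma membrane (Entrez 55334, chromosome 14, 69398384 to 69462390), went from 135.6, 119.9 and 131.4 CPM to 110.3, 101.7 and 110.3 CPM, a change of -0.26 ± 0.06 (edgeR adjusted p = 0.0033). SLC39A7 (ZIP7; Entrez 7922, chromosome 6, 33200867 to 33204437) went from 237.5, 240.3 and 226.3 CPM to 204.1, 207.8 and 216.8 CPM, a change of -0.16 ± 0.05 (edgeR adjusted p = 0.023). The groups did not overlap in either gene. The SLC39A7 call passed in 11 of 16 alternatives. It was lost without control replicate 2 (0.13), without mitocurcumin replicate 1 (0.15) or 2 (0.12), with upper-quartile scaling (0.064) and when genes under a mean of 1 CPM were dropped (0.052), where the values are edgeR adjusted p.

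SLC39A13 and SLC39A11, of the Golgi and vesicles, changed by 0.02 ± 0.12 and -0.23 ± 0.16 and did not pass. SLC39A1 and SLC39A3, both of the plasma membrane, gave -0.09 ± 0.07 and a value within 0.01 of 0 with an SE of 0.19. Control replicate 1 held the highest SLC39A3 value, 12.1 CPM, against 6.38 to 9.5 CPM in the other 5 libraries. SLC39A13 overlaps the noncoding row SLC39A13-AS1, and SLC39A1 overlaps CREB3L4, both on the opposite strand and with far fewer counts. SLC39A4, the intestinal zinc importer, was at 2.44 to 3.69 CPM in controls and 1.58 to 2.94 CPM after treatment, a change of -0.41 ± 0.27 that did not pass (edgeR adjusted p = 0.27).

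The importers left were hardly detected. SLC39A5 held 4, 0 and 0 counts in controls and 6.3, 10.7 and 3 after treatment, SLC39A12 at most 0.1 counts in a library, and SLC39A2 was at 0 in all 6. These 3 were not tested. SLC39A12 overlaps SLC39A12-AS1, a noncoding row, on the opposite strand, and SLC39A5 overlaps ANKRD52, a gene of far higher count, by 40 bases on the opposite strand.

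Other genes of metal handling were counted by lists, to be read against the 14.7% of all tested genes that were higher and the 17.8% that were lower. Of 19 tested copper genes 4 were higher, or 21.1%, and 1 lower, or 5.26%. Without control replicate 1, 2 were lower, where 19% of all genes tested in that fit were lower. The largest changes were in COX19, a copper-related assembly factor of cytochrome c oxidase, from 13.5 ± 0.5 to 33.9 ± 0.699 CPM (SD, n = 3; log2 fold change 1.32 ± 0.09, edgeR adjusted p = 1.4e-08), and SLC31A1, the main copper importer, from 99.6 ± 5.66 to 175.0 ± 9.06 CPM (0.81 ± 0.06, edgeR adjusted p = 3.2e-08). Iron and manganese genes gave 4 higher and 4 lower calls of 16, 25% each. The lower count was 2 without control replicate 1, where 19% of all genes tested were lower. Leaving out mitocurcumin replicate 1, 2 or 3 gave lower counts of 2, 2 and 1. The shares of all genes tested that were lower were then 13.2%, 12.8% and 13.4%. The higher count was 4 or 5 with any 1 library left out, and 11% to 17% of all genes tested were higher in those fits. FTH1, ferritin heavy chain, went from 772.7 ± 34.8 to 1371.1 ± 31.3 CPM (0.83 ± 0.05, edgeR adjusted p = 6e-09), and SLC11A2, the iron importer DMT1, from 68.7 ± 1.45 to 100.5 ± 0.47 CPM (0.55 ± 0.06, edgeR adjusted p = 1.5e-06). FTH1 overlaps BEST1 on the opposite strand.

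Of 11 tested genes of other zinc handling and sensing, 1 rose and 1 fell, 9.09% each against the same 14.7% and 17.8%. The higher count was 2 with upper-quartile scaling, with genes under a mean of 1 CPM dropped and without control replicate 1. In these fits 16.2%, 17.9% and 17% of all genes tested were higher. The lower count was 2 without control replicate 3, where 14.2% of all genes tested were lower. TMC6, whose protein binds SLC30A1, rose from 9.17 ± 1.75 to 17.8 ± 0.51 CPM (SD, n = 3; log2 fold change 0.96 ± 0.13, edgeR adjusted p = 2.9e-05), and overlaps TNRC6C, a gene of higher count, and TMC8 on the opposite strand. GPR39, a zinc-sensing receptor, fell from 10.3 ± 0.329 to 6.77 ± 0.7 CPM (-0.61 ± 0.13, edgeR adjusted p = 0.0021), and overlaps LYPD1 on the opposite strand. Of 12 other genes described as responding to zinc or cadmium, chiefly heat shock and glutathione genes, 11 rose, or 91.7%, and 0 fell. Their median log2 fold change was 1.32. HSPA6 and HSPA1A, inducible heat shock chaperones, gave its largest changes, from 0.338 ± 0.26 to 37.3 ± 12.3 CPM and from 64.3 ± 5.35 to 514.5 ± 105.2 CPM (SD, n = 3; edgeR adjusted p = 7e-05 and 1.9e-05). HSPA1A and HSPA1B are near-identical copies, so the split of reads between them is uncertain. The list was drawn up with earlier results of these data known and is no independent evidence of its direction. For that reason it gives no measure for the metallothioneins. The 4 tested metallothioneins gave 1 higher call, or 25%, where 14.7% of all tested genes were higher. Their median was -0.04, and that of all tested genes was -0.01.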

How the data were processed

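Gene expression was measured by sequencing of polyadenylated RNA in 3 control and 3 mitocurcumin libraries. The authors deposited raw values, which are estimated counts per gene, and normalized values on a log2 scale. Per the file headers the gene model was RefSeq, and per the submitters' processing notes the build was GRCh38. The kit was stranded, per the labels' protocols. Aligner, counting tool and use of strand in counting: not given in the sources used here. Where above 0, each deposited log2 value was the logarithm of the raw value over a factor fixed for its library.

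Members and lists were chosen with earlier results of these data known. Whole counts had been assumed when the test was chosen, so estimated counts were rounded. The test was that of edgeR 4.0.16 under R 4.3.3 (quasi-likelihood F-test, robust dispersion, TMM scaling, group as the only term). The filter filterByExpr (minimum count 10, minimum total 15) kept 16481 genes. P-values were two-sided and Benjamini-Hochberg adjusted, with a threshold of 0.05. SE is the fitted coefficient over the square root of F, and 95% intervals use its t quantile. CPM use TMM-scaled totals of the genes kept, and lengths are unions of GENCODE 29 exons. The named genes were members that passed at a mean of at least 1 CPM, tested metallothioneins and MTF1, with the 2 largest changes of each other list; values of the other members account for the whole set. The test was tried on simulated data. Alternatives used DESeq2 1.42.0, limma 3.58.1, other scalings and filters, unrounded values, a replicate term and each library left out. No library was a duplicate of another (chi-square per gene 5.36 to 19.2 between replicates).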

Additional observations from a re-analysis of the deposited data

How the results depend on the processing

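In 16 alternatives, 374 of 382 log2 fold changes of single members kept their call, 5 lost it, all of SLC39A7, 3 gained it without control replicate 1 and 0 reversed. Of the 9 called members, 8 passed in every alternative that was run. Higher calls numbered 4 throughout. Lower calls numbered 4 to 8 with 1 library left out, and 2 to 4 among exporters. In those fits 12.8% to 19% of all genes tested were lower, with 19% in the fit that gave 8. The median of the exporters was -0.12 when genes under a mean of 1 CPM were dropped, with 7 tested, and -0.03 to 0.10 with a library left out, with 8 or 9 tested. The log2 ratio of the summed metallothionein level, 0.07, was 0.01 to 0.13 with a library left out. Counts in the other metal lists stayed within 1.5 times in 119 of 128 cases; the other 9 were in the copper, iron and zinc-sensing lists.

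The labels do not say whether same-numbered libraries were paired. Deviations of same-numbered libraries correlated at 0.131, 0.018 and -0.01, and those of differently numbered libraries at -0.133 to 0.111. With 3 libraries in a group these values cannot settle it. With the replicate number as a block, 4 members were higher and 5 lower, where 16% and 19.2% of all tested genes were. No call of a member changed. Depth limits the low members: 9 of 33 had too few counts to be tested.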
